A study of Mus musculus with 2 samples.

Results

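The clustered histone genes of skin innate lymphoid cells, a class of lymphocytes that carries no rearranged antigen receptor, are described here one by one and by class. They were taken by symbol, as every gene starting with Hist1h, Hist2h, Hist3h or Hist4h, which gave 64 of the 18786 genes in the deposited table. Of these, 6 code for linker histone H1, 17 for H2A, 16 for H2B, 12 for H3 and 13 for H4, and each had at least 1 count.

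C57/BL6 mice had given skin at 2 ages, postnatal day 1 and day 14. The labels list 1 library for each age, and both libraries were made in the same way. Skin had been digested with collagenase, and CD45+, Lin-, Thy1.2+ cells had been enriched by flow cytometry and captured with a 5' single-cell kit. The suffix of a cell's name divides the table into cell set 1, with 1471 cells, and cell set 2, with 3775. Nothing in the labels ties a suffix to an age, so the sets are described side by side and not as ages. No genotype, treatment or number of pooled mice is given in the labels.

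Replication-dependent histone genes sit in clusters and supply the histones that package newly copied DNA. H2A, H2B, H3 and H4 form the core around which DNA is wound, and H1 binds the linker between cores. Their mRNAs classically end in a short stem-loop instead of a poly(A) tail, are made in S phase and are degraded when replication ends, whereas some members also give polyadenylated transcripts in cells that do not divide. A 5' kit of this type primes on poly(A) and reads the other end of the molecule, so the counts below are those of the molecules that this chemistry captures.

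By symbol, all 64 genes were found in GENCODE M21 (build GRCm38, the same sequence as mm10). The Hist1 cluster on chromosome 13 held 51, the Hist2 cluster on chromosome 3 held 10, the Hist3 group on chromosome 11 held 2 and Hist4h4 on chromosome 6 stood alone. A stem-loop was found in the annotated transcript of 46 genes and in none of the transcripts of the other 18. Some of these 18 are annotated as short transcripts, such as Hist1h4k with 312 bases, Hist1h2bl with 381 and Hist1h2ai with 393. A stem-loop past such an annotated end would be missed, so no match does not mean that a gene lacks one. Others are longer, such as Hist1h2bc with 1156 bases and Hist2h2be with 2620. The following 8 windows show the stem-loop in capitals with up to 5 flanking bases, 5' to 3' on the gene's strand. They were chosen to set cycle-bound genes beside genes that were outside cycling cells in at least 1 set (Hist1h1c, Hist2h4 and Hist4h4), by thresholds given with the levels, and to show where the H4 stem differs.
Hist1h2ap: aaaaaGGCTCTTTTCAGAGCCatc
Hist1h2ab: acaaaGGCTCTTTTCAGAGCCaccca
Hist1h3c: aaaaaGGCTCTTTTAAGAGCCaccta
Hist1h2ae: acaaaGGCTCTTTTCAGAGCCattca
Hist1h1c: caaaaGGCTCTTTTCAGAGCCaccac
Hist1h4d: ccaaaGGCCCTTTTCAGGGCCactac
Hist2h4: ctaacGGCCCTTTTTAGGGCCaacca
Hist4h4: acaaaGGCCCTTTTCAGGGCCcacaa
The 16 capital bases lie at chr13:21833029-21833044 for Hist1h2ap, chr13:23751572-23751587 for Hist1h2ab, chr13:23745047-23745062 for Hist1h3c, chr13:23570668-23570683 for Hist1h2ae, chr13:23739512-23739527 for Hist1h1c, chr13:23581950-23581965 for Hist1h4d, chr3:96262939-96262954 for Hist2h4 and chr6:136803998-136804013 for Hist4h4. The form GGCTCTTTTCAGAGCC was the most frequent, in 26 genes. Outside H4, all 34 matched genes began their stem with GGCTC, and none of the 12 matched H4 genes did. The stem-loop of Hist1h1c, which was found outside cycling cells, had the same letters as those of Hist1h2ap and Hist1h2ae, which were not.

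The annotated transcript of Hist1h2ap ran on for 3 bases past it, that of Hist1h2ab for 11 and that of Hist1h3c for 74. The annotation went on for 840 bases in Hist1h1c, 1257 in Hist2h4, 1643 in Hist3h2a and 2445 in Hist4h4. It also ran on in genes that were cycle-bound in both sets, for 4884 bases in Hist1h1d, 2010 in Hist1h2ac, 1861 in Hist1h2be and 1214 in Hist1h2bh.

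Expression was counted in unique molecular identifiers (UMIs), each of which tags 1 captured molecule whatever its length. Levels of different genes are thus set side by side as captured molecules, while the share captured may differ between genes. Cells in which mitochondrial genes held no more than 10% of UMIs entered the analysis, 1441 of set 1 and 3508 of set 2. A cell was called cycling when it had at least 3 UMIs of Mki67, Top2a and Birc5, genes of dividing cells, in all. In set 1, 451 cells were cycling (31.3%, interval 28.9 to 33.8%), and in set 2, 177 (5.05%, 4.35 to 5.82%). Median depth was 15545 UMIs in cycling and 9284 in other cells of set 1, and 9019 and 4747 in set 2. The marker threshold was not adjusted for depth, so it was harder to reach in shallower cells. Levels are CPM, a gene's UMIs per 1000000 UMIs of the cells summed. Intervals are 95% intervals that cover counting error only. There were no replicates, cells of 1 library are not replicates, and no test was run. Of the labelled cell type's markers, all 7 were present and none was called cycle-bound, and their summed level was 4226 CPM in cycling and 4641 in other cells of set 1, and 5470 and 6443 in set 2.

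Summed over all 64 genes, clustered histone RNA was far higher in cycling cells, yet was present in the others. In set 1 the sum was 5037 CPM in cycling cells and 843.5 in other cells, 5.97-fold higher (5.83 to 6.12). In set 2 it was 6301 and 1306 CPM, 4.83-fold higher (4.71 to 4.94). A cycling cell of set 1 held on average 79.6 UMIs of these genes and another cell 8.0, while in set 2 these means were 60.9 and 6.40. The sum in cells with 0 UMIs of the cycling markers, 820.5 CPM in set 1 and 1314 in set 2, was close to that of all other cells. These cells are most of the other cells, 734 of 990 in set 1 and 2923 of 3331 in set 2. The 2 sums thus largely count the same UMIs.

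A gene with at least 20 UMIs in a set, cycling and other cells together, was counted as measured there. It was called cycle-bound when its CPM in cycling cells was at least 4-fold that in other cells, outside when the ratio was under 2, and intermediate in between. In set 1, 49 of 58 measured members were cycle-bound, against 2.64% of all 10890 measured genes. In set 2, 38 of 55 were, against 3.04% of 10882. Outside cycling cells lay 5 members in set 1 and 7 in set 2, where 93.9% and 90.8% of all genes did. The median member ratio was 9.27 in set 1 and 6.70 in set 2, and the median of all genes was 1.03 and 1.08. In both sets 54 members were measured, of which 37 were cycle-bound in both and 4 outside in both. Left unmeasured in both sets were Hist2h2aa2, Hist1h3h, Hist1h4j, Hist1h2ah and Hist1h1t, the testis linker histone.

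**Figure D1:**
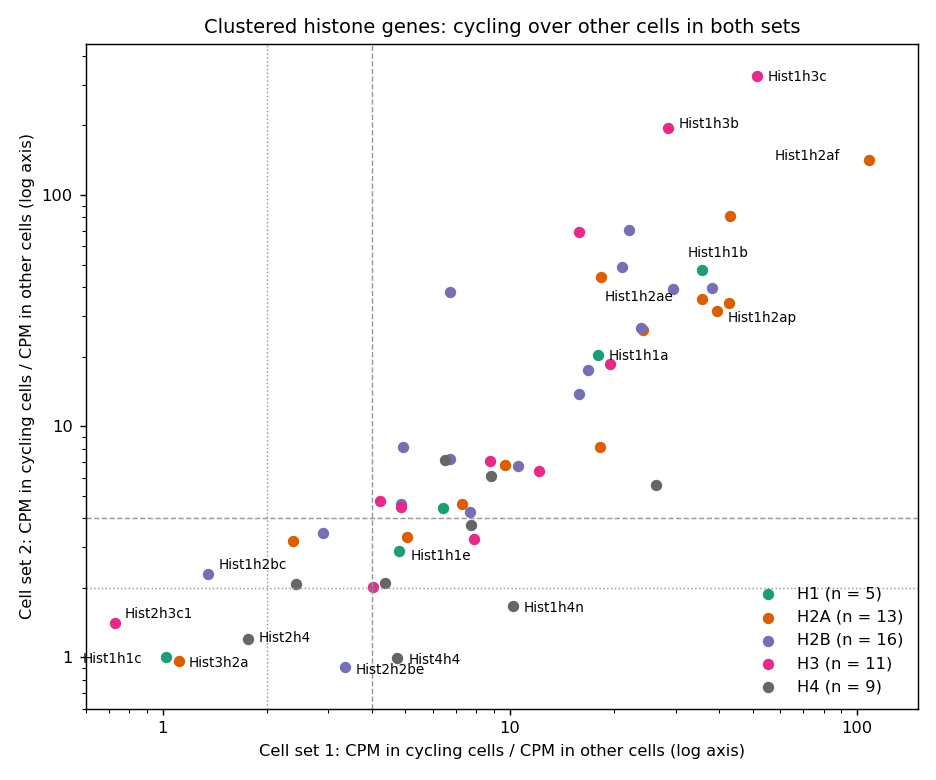
Each point is 1 of the 54 members measured in both cell sets, coloured by class, with the ratio of CPM in cycling over other cells in set 1 (horizontal, log axis) and set 2 (vertical, log axis), and dotted and dashed lines at the 2-fold and 4-fold thresholds. The 37 members in the upper right are cycle-bound in both sets, and Hist1h1c, Hist3h2a, Hist2h4 and Hist2h3c1 lie under 2-fold in both.

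Close to the thresholds the calls rest on small differences. In set 1 the members nearest to 4-fold were Hist2h2be at 3.34 and Hist2h3c2 at 4.04, and those nearest to 2-fold were Hist2h4 at 1.76 and Hist2h2ab at 2.37. In set 2 they were Hist1h4h at 3.74 and Hist2h2bb at 4.24, and Hist1h4n at 1.66 and Hist2h3c2 at 2.01. In cells thinned to 3000 UMIs each, Hist2h3c2 was at 2.47 in set 1 and 12.4 in set 2, and Hist2h2ab at 1.44 in set 1. Before thinning, Hist2h3c2 had 61 UMIs in set 1 and 23 in set 2, of which 4 lay in cycling cells. Hist2h2ab had 28 in set 1. The thinned ratios thus rest on few UMIs and are uncertain.

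Among the linker histones the genes fell at opposite ends. Hist1h1b stood at 415.6 CPM in cycling and 11.6 in other cells of set 1, and at 699.4 and 14.8 in set 2, ratios of 35.8 (29.6 to 43.7) and 47.3 (41.2 to 54.6). Its annotated transcript of 743 bases held no stem-loop match. The level of Hist1h1c was 226.6 and 221.3 CPM in set 1 and 313.5 and 312.5 in set 2, so that its level was nearly equal in cycling and other cells, at 1.02-fold (0.959 to 1.09) and 1.00-fold (0.916 to 1.10). Between these lay Hist1h1e, a linker gene at 328.2 and 68.3 CPM in set 1 (4.81-fold) and 550.3 and 190.4 in set 2 (2.89-fold), which was cycle-bound in set 1 and intermediate in set 2. Hist1h1d was cycle-bound in both sets, at 6.40-fold and 4.42-fold, and so was Hist1h1a, at 17.9-fold and 20.4-fold. The sum of the H1 genes was 3.51-fold higher in cycling cells of set 1 and 3.25-fold in set 2, and 19.9-fold and 14.5-fold without Hist1h1c and Hist1h1e, a sum added after the values were seen. The ratio of Hist1h1b in set 1 was 17.9 when cells were split by Cdk1, Ccna2 and Nusap1 and 57.7 when other cells had no UMI of 8 cycle genes, and that of Hist1h1a there was 27.8 in thinned cells.

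H2A genes had the largest class sum in cycling cells of set 1, at 2184 CPM, and the second largest in set 2, at 1522 CPM, after H1 at 1859. Hist1h2ap stood at 853.0 CPM in cycling and 21.6 in other cells of set 1 and at 192.4 and 6.13 in set 2, ratios of 39.4 (34.3 to 45.6) and 31.4 (25 to 39.7). Hist1h2ae stood at 803.2 and 22.5 CPM in set 1 and at 575.5 and 16.2 in set 2, with ratios of 35.7 and 35.6. The highest ratio of the class belonged to the less abundant Hist1h2af, 108 (36.5 to 527) in set 1 and 141 (74.7 to 301) in set 2, resting on 3 and 10 UMIs in other cells. Of 14 measured H2A genes, 12 were cycle-bound in set 1 and 11 in set 2. Outside in both was Hist3h2a, of the chromosome 11 group, at 65.4 and 58.5 CPM in set 1 (1.12-fold, 0.986 to 1.27) and 104.7 and 108.5 in set 2 (0.964-fold, 0.822 to 1.12). Hist3h2a overlaps Trim17 on the same strand in the annotation, so its counts are uncertain. With the split by Cdk1, Ccna2 and Nusap1, the set 1 ratios of Hist1h2ap, Hist1h2ae and Hist1h2ab were 13.4, 16.5 and 20.8, all still cycle-bound. Hist1h2ab was otherwise at 42.9 in set 1 and 81.4 in set 2, and at 52.8 in set 2 with that split.

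Of the 16 H2B genes, 13 were cycle-bound in each set, but 1 gene held most of the class's UMIs in other cells. Hist1h2bc stood at 310.0 CPM in cycling and 229.3 in other cells of set 1, 1.35-fold (1.27 to 1.44), and at 511.7 and 222.9 in set 2, 2.30-fold (2.13 to 2.47). Its level in other cells was thus nearly the same in both sets, and its call moved from outside to intermediate. Counting cells as cycling from 2 marker UMIs gave 1.95 in set 2, which is outside. Hist1h2bj was the next most abundant in cycling cells, at 91.4 CPM against 3.09 in set 1 (29.6-fold) and 102.9 against 2.63 in set 2 (39.1-fold), and at 15.4-fold in set 1 with the split by Cdk1, Ccna2 and Nusap1 and 61.4-fold in thinned cells of set 2. The H2B sum was 2.55-fold higher in cycling cells of set 1, the smallest ratio of the 5 classes there, and 3.91-fold in set 2, and 10.3-fold and 9.16-fold without Hist1h2bc, again added later. Hist2h2be was intermediate in set 1 (3.34-fold) and outside in set 2 (0.909-fold, 0.237 to 2.5), on 46 UMIs in each set.

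The H3 sum was 12.4-fold higher in cycling cells of both sets. Its leading gene Hist1h3c had the sharpest contrast of the class, at 202.6 CPM in cycling and 3.94 in other cells of set 1, a ratio of 51.4 (37.1 to 73.3), and at 321.7 and 0.981 in set 2, a ratio of 328 (200 to 578). Only 16 UMIs of Hist1h3c lay in the 3331 other cells of set 2. That ratio depended on which cells counted as cycling: split by Cdk1, Ccna2 and Nusap1 it was 16 in set 1 and 72.2 in set 2, and against cells with no UMI of 8 cycle genes 112 and 586. Hist2h3c1 was the H3 gene outside in both sets, at 2.10 and 2.88 CPM in set 1 and 5.85 and 4.17 in set 2, levels that rest on 42 and 78 UMIs. With cycling counted from 2 marker UMIs its set 1 ratio of 0.732 became 1.44. Hist2h3c1 overlaps Gm20634 on the same strand in the annotation and shares sequence with Hist2h3c2 and Hist2h3b, so its counts are uncertain.

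H4 genes were the class whose calls differed most between the sets: of 9 measured in both, 5 had the same call. In set 1, 10 of 12 measured were cycle-bound, and in set 2, 3 of 9. Hist1h4k, Hist1h4m and Hist1h4f, cycle-bound in set 1, were unmeasured in set 2. Hist1h4d, the most abundant, stood at 348.7 CPM in cycling and 39.4 in other cells of set 1 (8.85-fold, 7.93 to 9.90) and at 674.3 and 110.9 in set 2 (6.08-fold, 5.64 to 6.55). Hist1h4i was at 6.50-fold and 7.16-fold. Hist2h4 was outside in both sets, at 10.5 and 5.96 CPM in set 1 (1.76-fold, 1.23 to 2.54) and 15.2 and 12.6 in set 2 (1.2-fold, 0.768 to 1.82), and thinning put it at 0.863 in set 1. Hist4h4 and Hist1h4n were cycle-bound in set 1, at 4.74-fold and 10.2-fold, and outside in set 2, at 0.990-fold and 1.66-fold. Both are scarce, with 69 and 35 UMIs in set 1, and thinned cells gave 2.37 for Hist4h4 and 5.04 for Hist1h4n, which was at 6.26 with the split by Cdk1, Ccna2 and Nusap1.

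The histone RNA of other cells was concentrated in few genes. Hist1h2bc and Hist1h1c held 53.4% of the members' UMIs in other cells of set 1 and 41.0% in set 2, and together with Hist1h1e, Hist3h2a and Hist1h4d 73.1% and 72.4%. In cycling cells the 5 leading genes held 54.6% in set 1, where Hist1h2ap and Hist1h2ae led, and 47.8% in set 2, where Hist1h1b and Hist1h4d did. A UMI of Hist1h1c was seen in 50.7% of other cells of set 1 and 48.8% of set 2, and in 74.3% and 80.8% of cycling cells. After each cell was thinned to 3000 UMIs (23 cells of set 1 and 493 of set 2 were too shallow for this), these shares were 31.1% and 41.0% in other cells and 37.4% and 47.1% in cycling cells. Hist1h3c, by contrast, had a UMI in 3.13% and 0.450% of other cells and in 69.4% and 64.4% of cycling cells, or 1.34%, 0.317%, 37.4% and 44.8% after thinning.

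For single cells, the 37 genes that were cycle-bound in both sets were added up. The median cycling cell held 45 of their UMIs in set 1 and 37 in set 2, and the median of the other cells was 1 in each set. At least 20 were held by 295 cells of set 1, of which 293 (99.3%) were cycling, and by 112 of set 2, of which 111 (99.1%) were. The genes were chosen by their level in these same cells, so the figures describe how the UMIs were spread over cells. Among cycling cells 12 of set 1 and 8 of set 2 had none of these UMIs.

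Levels also differed along the number of marker UMIs. Hist1h3c stood at 3.16 CPM in cells of set 1 with 0 marker UMIs, 13.7 in cells with 3 to 4 and 248.3 in those with 10 or more, and in set 2 at 0.572, 35.8 and 469.1. Over all 6 groups, from 0 marker UMIs to 10 or more, Hist1h1c stood at 236.8, 196.5, 154.7, 209.3, 192.5 and 234.3 CPM in set 1 and at 317.7, 276.4, 298.7, 280.9, 247.3 and 350.0 in set 2. Its level was lower in the groups between than at either end.

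**Figure D2:**
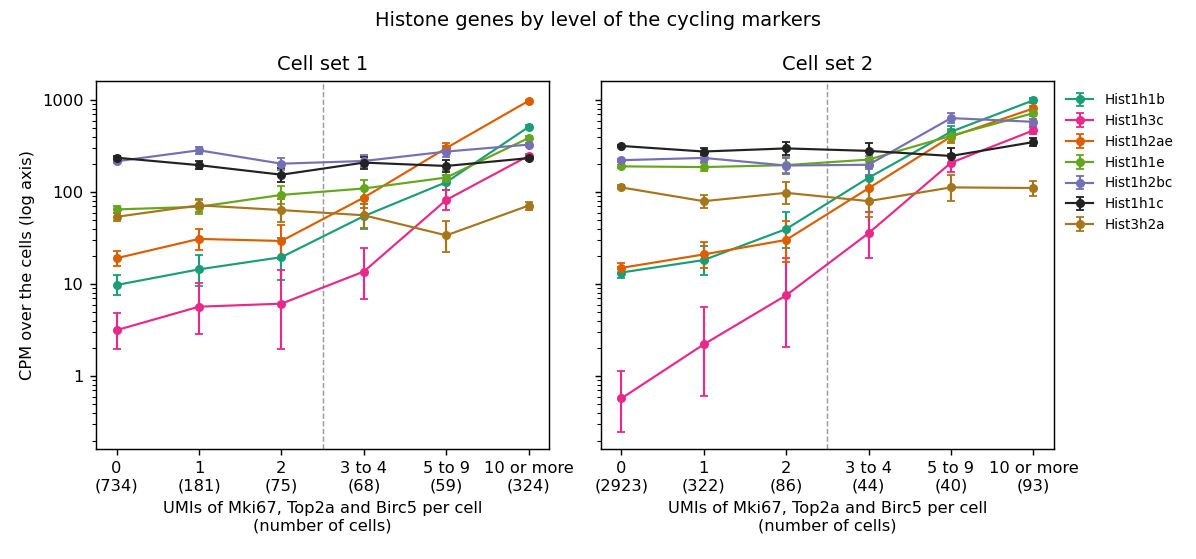
CPM (log axis) of 7 members in cells grouped by their UMIs of Mki67, Top2a and Birc5, with the number of cells in brackets, 95% counting intervals as bars and a dashed line between other and cycling cells. Hist1h3c, Hist1h1b and Hist1h2ae are higher in each group to the right of the line than to its left, while Hist1h1c ranges from 154.7 to 236.8 CPM in set 1 and from 247.3 to 350.0 in set 2, and Hist3h2a from 33.9 to 71.9 and from 79.8 to 112.6.

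RNA of other cell types was also unevenly spread over the 2 groups of cells. The summed level of 5 erythroid markers was 44.1 CPM in cycling and 190.4 in other cells of set 1, and 15.2 and 230.9 in set 2. The 4 keratinocyte markers summed to 93.3 and 119.0 CPM in set 1 and 12.9 and 15.3 in set 2, the 6 fibroblast and endothelial markers to 64.0 and 87.8 and to 8.77 and 12.5, and the 7 myeloid and mast cell markers to 41.0 and 93.6 and to 0.585 and 0.674. Of the T cell markers, 4 of 5 were in the table, at 19.1 and 28.9 CPM in set 1 and 28.7 and 36.3 in set 2. The only B cell marker in the table, Cd79a, was at 0 in cycling cells of both sets and in all cells of set 2, and Csf1r was at 0 in set 1. The 3 melanocyte markers stood between 2.10 and 2.98 CPM in all 4 groups. The part of such RNA in the histone levels was not tested.

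The list of genes that serve histone supply held 23 genes, of which 22 were measured in each set, with 2 cycle-bound, 5 intermediate and 15 outside in set 1, and 2, 7 and 13 in set 2. Of all measured genes, 2.64% and 3.04% were cycle-bound and 93.9% and 90.8% outside. The list's cycle-bound genes were Asf1b, a chaperone of H3 and H4, at 65.2 CPM in cycling and 5.01 in other cells of set 1 and 81.9 and 2.51 in set 2, and Chaf1a, a subunit of the assembly factor that places histones on new DNA, at 34.7 and 4.15 and at 30.4 and 1.41. Slbp, which binds the stem-loop, stood at 206.7 and 86.6 CPM in set 1 (2.39-fold) and 211.1 and 113.4 in set 2 (1.86-fold). Npat, the activator of histone gene transcription, was at 2.10-fold and 2.57-fold. The list was chosen with earlier results of these data known.

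Histone variant genes outside the clusters were set against the same thresholds. In set 1, 1 of 11 was cycle-bound and 9 were outside, and in set 2, 3 of 10 and 6, beside the 2.64% and 3.04% of all genes that were cycle-bound and the 93.9% and 90.8% outside. H3f3b, which codes for the replacement histone of the H3 class, stood at 4659 CPM in cycling and 3408 in other cells of set 1 and at 6071 and 4883 in set 2. H2afx, the variant marked at DNA breaks, was cycle-bound at 5.01-fold and 9.71-fold, and H2afz was at 1.86-fold and 2.71-fold. H3f3a, the sister gene of H3f3b, stood at 1676 and 1782 CPM in other cells of the sets. Both H3f3a and H3f3b were higher there than the sum of the 64 clustered genes, 843.5 and 1306 CPM. The kit primes on poly(A), so this order holds for captured molecules only, and differences in capture were not tested.

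Members were also grouped by their annotated transcript end. Where the annotation stopped fewer than 100 bases past the stem-loop, all 21 measured members were cycle-bound in set 1, with a median ratio of 18.3, and 17 of 20 in set 2, with a median of 29.0. Where it ran on for 300 bases or more, 13 of 17 were cycle-bound in set 1 and 4 outside, and in set 2 9 of 17 and 5, and the medians were 4.81 and 4.42. Of 4 measured members that ended in between, 2 were cycle-bound in each set, and their medians were 3.91 and 5.78. Median levels in other cells were 0.959 CPM in set 1 and 1.9 in set 2 for ends under 100 bases past. They were 6.07 and 17.5 CPM for ends of 300 or more. In cycling cells these medians were 25.4 and 36.0 against 36.6 and 38.6. Members scarce in other cells could pass the 20-UMI minimum only through cycling cells, which fixes a high ratio. The counts of these groups thus depend in part on that minimum. Hist1h1c, Hist3h2a, Hist2h4 and Hist2h3c1, the 4 members outside in both sets, were all among those that ran on for 300 bases or more. The counts of Hist3h2a and Hist2h3c1 are uncertain because of their overlaps. Of the 18 genes with no stem-loop match, 13 of 16 measured were cycle-bound in set 1 and 10 of 14 in set 2, and Hist1h2bc, whose annotated transcript has no match, was the 1 outside in set 1. A missing match can also come from an annotation that stops short, so this group says nothing of a gene's real end. The transcripts' real ends were not measured, since the counts come from 5' reads. By locus, the median ratio was 15.8 and 8.11 in Hist1, 4.04 and 3.18 in Hist2 and 2.01 and 2.21 in Hist3.

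**Figure D3:**
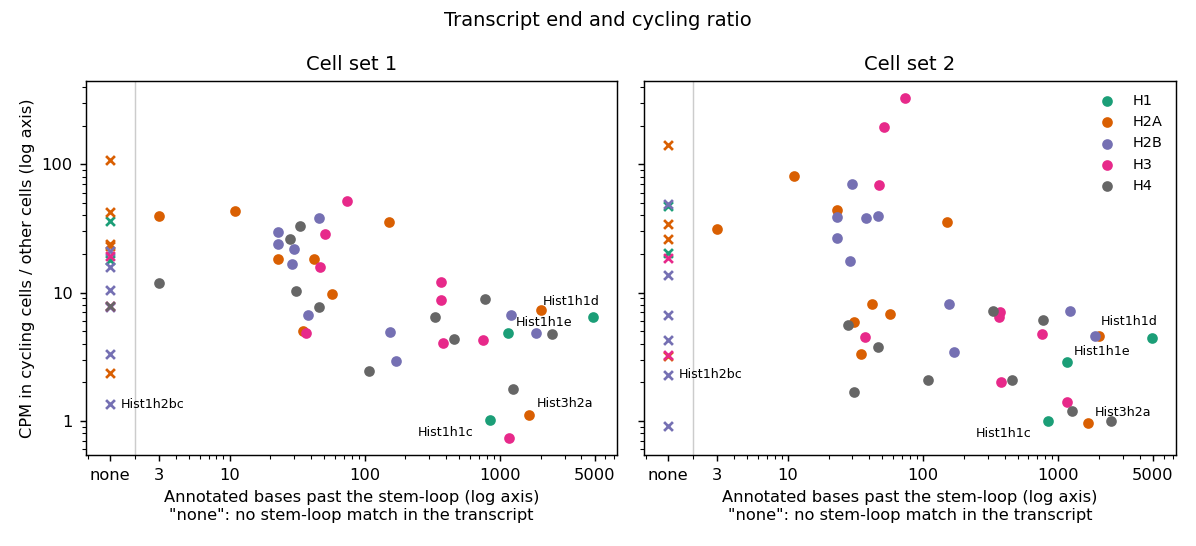
Ratio of CPM in cycling over other cells (vertical, log axis) against the bases annotated past the stem-loop (horizontal, log axis) for the members measured in each cell set, coloured by class, with genes without a stem-loop match as crosses at the left. Members ending within 100 bases all lie above 4-fold in set 1, and the members under 2-fold in both sets lie at the right.

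Near-identical copies limit what can be said of single genes. In 42 of the 64, at least 50% of the 50-base windows in the first 300 bases also occur in another gene, and reads from such windows may have been dropped or split when the authors counted. Levels of those genes, Hist1h2ap and Hist1h2bc among them, are uncertain, and Hist1h2be also overlaps Hist1h1e. Only 7 genes share no such window, among them Hist1h1b, Hist1h1a, Hist1h1d and Hist4h4.

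H2A and H2B genes often lie head to head. Start sites of an H2A and an H2B gene on opposite strands were at most 500 bases apart in 10 pairs, and both partners were cycle-bound in 7 pairs in set 1 and 6 in set 2. Not every pair could be called, since Hist1h2ah was unmeasured in both sets and Hist1h2ai in set 2. Of all measured genes of these classes, 12 of 14 H2A and 13 of 16 H2B were cycle-bound in set 1. In set 2, 11 of 14 and 13 of 16 were. Hist1h2ac and Hist1h2bc, 251 bases apart, differed: Hist1h2ac stood at 44.1 CPM in cycling and 6.07 in other cells of set 1 (7.26-fold) and 30.4 and 6.62 in set 2 (4.59-fold), against 1.35-fold and 2.30-fold for Hist1h2bc. Hist2h2ac and Hist2h2be, 239 bases apart, were at 9.69-fold and 3.34-fold in set 1 and 6.82-fold and 0.909-fold in set 2.

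The 250 bases before the start site were read from RefSeq (GRCm38.p6), where 59 of the 64 genes matched. The following 3 are printed on the gene's strand, 5' to 3', to set a cycle-bound linker gene (Hist1h1b, chr13:21780626-21780875) beside the linker gene that was outside in both sets (Hist1h1c, chr13:23738557-23738806), and to show the stretch between Hist1h2ac and Hist1h2bc (chr13:23683960-23684209). Capitals mark the CCAAT box by those letters, the TATA box as TATAAA and the octamer as ATTTGCAT, on either strand.
Hist1h1b: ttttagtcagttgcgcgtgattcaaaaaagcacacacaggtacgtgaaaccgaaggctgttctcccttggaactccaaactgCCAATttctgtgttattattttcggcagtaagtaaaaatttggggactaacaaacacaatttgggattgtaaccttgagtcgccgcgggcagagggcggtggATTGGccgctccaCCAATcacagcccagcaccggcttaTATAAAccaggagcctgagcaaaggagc
Hist1h1c: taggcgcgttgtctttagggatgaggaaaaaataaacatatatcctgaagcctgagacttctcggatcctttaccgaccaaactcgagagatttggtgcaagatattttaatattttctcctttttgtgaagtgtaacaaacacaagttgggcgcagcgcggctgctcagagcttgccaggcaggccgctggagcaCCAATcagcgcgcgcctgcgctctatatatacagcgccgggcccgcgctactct
Hist1h2ac: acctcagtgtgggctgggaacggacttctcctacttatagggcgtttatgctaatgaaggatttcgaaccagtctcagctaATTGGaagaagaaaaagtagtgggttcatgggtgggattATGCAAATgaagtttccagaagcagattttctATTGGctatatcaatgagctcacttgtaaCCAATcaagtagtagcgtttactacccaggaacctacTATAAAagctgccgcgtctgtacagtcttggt
Letters of CCAAT were found in all 3, TATAAA in Hist1h1b and Hist1h2ac but not in the window of Hist1h1c, and the octamer in Hist1h2ac alone of these. Over all matched members, CCAAT was present in 81.4% against 34.5% of 27025 promoters of the same length, and TATAAA in 45.8% against 13.0%. The octamer was in 6 of 17 H2A and 5 of 14 H2B windows, in none of the H1, H3 and H4 windows, and in 1.61% of all promoters. H4 windows held CCAAT in 25%. Such matches describe letters, not binding.

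Within the cycling cells, those with more UMIs of an S phase list of 26 genes than of a mitosis list of 20 were called S-leaning, 248 cells in set 1 and 101 in set 2, and the remaining 203 and 76 mitosis-leaning. The mitosis-leaning cells thus include any with equal UMIs of both lists or with none of either. Both groups hold only cells with at least 3 marker UMIs, so any S phase cells below that lie among the other cells. The S phase list stood at 2051 CPM in cycling and 530.4 in other cells of set 1, and 2065 and 289.7 in set 2. For the mitosis list these levels were 1891 and 140.7, and 1709 and 63.3. How many S phase cells were left out in this way was not tested. Histone RNA was lower in the S-leaning cells: the sum was 4657 CPM against 5500 in set 1, a ratio of 0.847 (0.829 to 0.865), and 5447 against 7411 in set 2, 0.735 (0.708 to 0.763). In set 1, 1 of 54 members was at least 2-fold higher in S-leaning cells, against 2.77% of all genes, and in set 2, 0 of 46, against 5.38%. Below 1 were 43 of the 54, against 56.1% of all genes, and 40 of the 46, against 46.1%. The median of all genes was 0.966 in set 1 and 1.03 in set 2. By class, the H1 sum of set 1 was the exception, at 1.07 (1.03 to 1.12), and in set 2 it was at 0.772. Hist1h1a leaned to S phase in both sets, at 1.44 and 1.39. Hist1h2bc was lower in S-leaning cells, with 216.3 CPM against 424.0 in mitosis-leaning cells of set 1 (0.510) and 265.0 against 832.3 in set 2 (0.318, the lowest of the 46). The lowest of the 54 in set 1 was Hist3h2ba, another H2B gene, at 0.356.

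A finer division, added after these values were seen, placed cycling cells in 5 ranges by the mitosis list's share of the UMIs of both lists. Cells with no UMI of either list have no such share and were left out. In set 1 the members' sum was 2059 CPM in the range of 0 to 20%, then 5453, 7096 and 5712, and 2984 in the range of 80 to 100%, with 91, 111, 105, 93 and 51 cells. The highest level was thus in the middle. In set 2 it was 3435, 6794, 7972, 7012 and 8778, with 50, 37, 31, 24 and 28 cells. Of the members with at least 100 UMIs in cycling cells, 27 of 37 were highest in the middle range in set 1 and 11 of 24 in set 2, where 11 others were highest in the last range. Beside them Pcna, of the S phase list, stood at 142.4 CPM in the first and 28.5 in the last range of set 1, and Ube2c, of the mitosis list, at 16.1 and 824.9, and both belong to the lists that set the ranges. Slbp was highest in the second range of both sets, at 326.8 and 298.1 CPM.

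Among the members with at least 100 UMIs in cycling cells, Hist1h2bc was 1 of 5 highest in the fourth range of set 1. In set 2 it was 1 of the 11 highest in the last range. Its level in the last range over that in the first was 3.05 in set 1 and 11.7 in set 2. Both were the highest among these members, beside 3.04 and 5.77 for Hist1h2bb. In set 1 the order of these 2 genes is not firm, since Hist1h2bb had 15 UMIs in the first and 27 in the last range. Without the top cell of each range, Hist1h2bc was there at 101.5 and 287.6 CPM and Hist1h2bb at 9.30 and 30.3. Hist1h2bb then had the larger ratio. Hist1h2bc stood at 114.8, 260.6, 397.7, 417.2 and 350.4 CPM over the 5 ranges of set 1. In set 2 it stood at 111.9, 347.8, 428.5, 858.6 and 1306. Single cells weighed on the values of both sets. In the third range of set 1, 1 cell held 130 of 731 Hist1h2bc UMIs, and without it the level was 330.5 CPM. In set 2, without the cell with the most Hist1h2bc UMIs, the fourth range was at 570.6 CPM. The last range, where that cell held 103, was at 964.1 without it. For comparison, Hist1h1b stood at 181.4, 555.7, 609.4, 351.3 and 142.2 CPM over the same ranges of set 1, highest in the middle. In set 2 it stood at 398.2, 849.9, 919.5, 862.8 and 698.0, again highest in the middle.

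**Figure D4:**
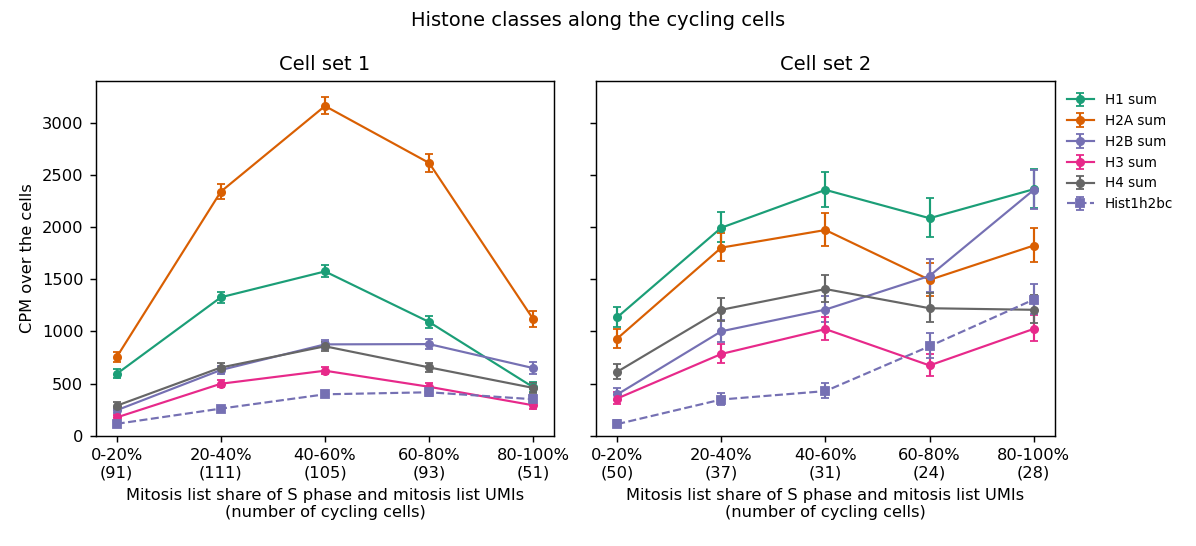
Summed CPM of each histone class, and of Hist1h2bc as a dashed line, in cycling cells divided into 5 ranges of the mitosis list's share of S phase and mitosis list UMIs, with the number of cells in brackets and 95% counting intervals as bars. In set 1 the H2A sum goes from 755.4 CPM through 3162 to 1118, and in set 2 the H2B sum is highest in the last range, at 2357.

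Set side by side within cycling cells, the members' sum was 1.25-fold higher in set 2 than in set 1 (1.22 to 1.28), and within other cells 1.55-fold (1.51 to 1.59). Over all kept cells it was 0.671 of set 1's, where 31.3% of cells were cycling against 5.05%. In cycling cells 60 members were measured over both sets. At least 2-fold higher in set 2 were 16, against 6.63% of all 9951 genes, and at least 2-fold lower were 3, namely Hist2h3c2, Hist1h4m and Hist1h2ap, against 7.71%. In other cells, of 48 measured, 20 were at least 2-fold higher, against 8.8% of 11464 genes, and 2 lower, Hist1h2ap and Hist1h3c, against 9.29%. The median member ratio was 1.61 in cycling and 1.5 in other cells, while the median of all genes was 0.957 and 0.925. These ratios describe 2 sets of cells and have no replicate error.

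Hist1h2ap stood apart, at 853.0 CPM in cycling cells of set 1 and 192.4 in set 2, a ratio of 0.226 (0.201 to 0.252). Of its 50-base windows, 88% also occur in other genes, first of all in Hist1h2ao. The scarce Hist1h2ao, not measured in set 1, was at least 2-fold higher in set 2 in cycling and in other cells. How reads were divided between the 2 genes was not tested, so the level of Hist1h2ap is uncertain. The H2A sum was 0.697-fold in set 2, and 0.999-fold without Hist1h2ap, a setting added after the values were seen, while the sums of the other classes were 1.62-fold to 1.71-fold higher. Without Hist1h2ap the ratio of all members was 1.46. In other cells the class that differed most was H4, at 87.3 CPM in set 1 and 208.4 in set 2 (2.39-fold), with 7 of 9 genes at least 2-fold higher. Hist1h1d and Hist1h1e were also higher there, at 3.87-fold (3.19 to 4.72) and 2.79-fold (2.56 to 3.04), whereas Hist1h2bc was at 0.972-fold (0.921 to 1.03).

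**Figure D5:**
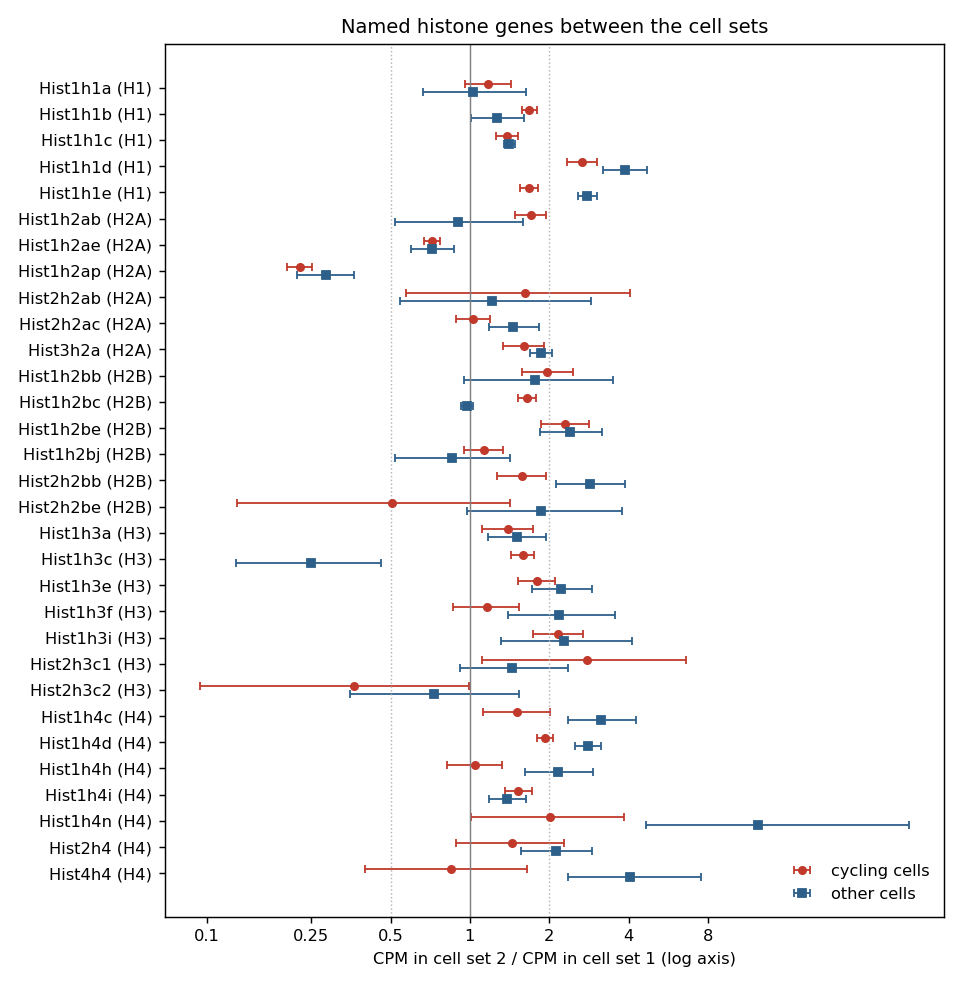
CPM in cell set 2 over cell set 1 (log axis) for 31 named members in cycling cells (circles) and other cells (squares), with 95% counting intervals and lines at 0.5, 1 and 2. Hist1h2ap lies under 0.5 in both kinds of cell, and Hist1h3c at 1.59 in cycling and 0.249 in other cells.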

How the data were processed

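The authors deposited UMI counts of 5246 cells as 1 table of whole numbers, with no scaling. The submitters' processing notes name Cell Ranger 3.1.0, Seurat 4.1.0 and the build mm10 without their settings. Every cell held at least 500 UMIs and 211 genes. Kept cells held 16514632 UMIs in set 1 and 18026148 in set 2, and 4 cell barcodes occurred in both sets. Doublets were not called.

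UMIs were summed over cells and scaled to CPM in Python 3.11.15 with numpy 2.4.6 and scipy 1.17.1. Levels carry exact Poisson intervals, shares of cells Clopper-Pearson intervals and ratios exact binomial ones, all at 95%. The ratio step was tested on simulated data. The histone stem-loop consensus was searched on the transcript strand. The 8 cycle genes are the 3 marker genes with Rrm2, Tyms, Clspn, Cdc6 and Tk1, and the setting that uses them was added after the values were seen. TMM factors of edgeR 4.0.16, tried as an alternative, shifted the median gene between the sets by 0.15 (log2) over all and over other cells and by -0.01 over cycling cells.

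Named genes were the 5 members of each class with the most UMIs, all members called outside, and those next to a threshold. Others complete a short count, a pair or an extreme and were chosen after their values were seen. Members and lists were chosen with earlier results of these data known. Alternatives covered the marker threshold, the marker genes, the mitochondrial limit, thinning, scaling, the UMI minimum and the folds.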

Additional observations from a re-analysis of the deposited data

Results flagged for a closer look

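Hist1h3c moved in opposite directions between the cell sets in cycling and in other cells. Its level in set 2 was 1.59 times that in set 1 within cycling cells (interval 1.44 to 1.75) and 0.249 times within other cells (0.129 to 0.458). The second ratio rests on 37 UMIs in set 1 and 16 in set 2. The difference between the 2 ratios was not tested, since there were no replicates.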

How the results depend on the processing

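No paired analysis was possible because the cells carry no replicate number and the table is 1 pooled sample. No summed ratio moved to the other side of 1 under the alternatives run, while the ratios of Hist1h1c in both sets, Hist2h4 and Hist2h3c1 in set 1 and Hist2h2be, Hist3h2a and Hist4h4 in set 2 did, all of them members called outside. The summed ratio of cycling over other cells (5.97 in set 1, 4.83 in set 2) was 5.49 and 3.93 with cycling cells counted from 2 marker UMIs, 6.34 and 5.69 from 5, 5.60 and 5.99 when split by Cdk1, Ccna2 and Nusap1, and 5.53 and 4.37 when scaled without mitochondrial genes, ribosomal protein genes and Malat1. It was 6.14 in set 1 against other cells with 0 marker UMIs and 6.14 against those with 0 UMIs of 8 cycle genes, and 4.99 in set 2 without the top 1% of cells by UMIs. Counts of cycle-bound members ran from 33 to 52 in set 1 and from 28 to 43 in set 2. Counts of outside members went from 5 to 8 in set 1 and from 7 to 12 in set 2 when the limit was 3-fold, and to 11 in set 2 with cycling cells counted from 2 marker UMIs.

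Of the named members, 20 of 24 cycle-bound in set 1 and 14 of 18 in set 2 kept that call in all 12 alternatives that could change it, and 4 of 5 and 5 of 7 kept the outside call. Hist1h3a lost the cycle-bound call in both sets, Hist1h4c, Hist2h3c2 and Hist4h4 in set 1, and Hist1h1d, Hist1h2be and Hist2h2bb in set 2. Hist2h4 lost the outside call in set 1, and Hist1h4n and Hist2h3c1 in set 2. Some of these genes are scarce, with 61 UMIs for Hist2h3c2 and 69 for Hist4h4 in set 1. Hist2h3c1 had 78 in set 2. Their lost calls thus rest on few UMIs.

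The ratio of set 2 over set 1 in cycling cells (1.25) was 1.11 from 2 marker UMIs, 1.36 from 5, 1.36 with the other marker split, 1.29 in thinned cells, 1.18 scaled without mitochondrial genes, ribosomal protein genes and Malat1, 1.29 without the top 1% of cells and 1.46 without Hist1h2ap. In other cells (1.55) it was 1.27 with the other split, 1.64 thinned, 1.5 with that scaling and 1.72 with TMM factors. Over all kept cells (0.671) it was 0.763 thinned, 0.650 without the top 1% and 0.746 with TMM factors. Thinning changed the histone levels only, and cells stayed cycling or other by their unthinned marker UMIs. Causes of these shifts were not tested. Members under 20 UMIs in a set could not be called there.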
